A study of Mus musculus with 6 samples.

Results

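Transcripts of 43 DNA repair genes were described in RAW264.7 cells, a mouse macrophage-like line, after exposure to itaconate for 24 h and without treatment. The 43 genes were taken by symbol from the 35976 rows of the count table, in 6 classes: 15 of homologous recombination, 8 of the Fanconi anaemia pathway, 3 of mismatch repair, 7 of nucleotide excision repair, 5 of base excision and single-strand break repair, and 5 of end joining. Each group had 3 libraries. The itaconate group was cells given itaconate and the control group was cells with no treatment, of the same line. Dose, chemical form and vehicle are not in the labels. Nor do they state that replicate libraries were grown as separate cultures, so that p-values measure only how these libraries vary, and that variation may be technical.

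Cells repair DNA by routes that differ in the lesion and in the template. Recombination copies an intact sister chromatid to mend a double-strand break and is used mainly in S and G2 phases, and the Fanconi pathway brings it to crosslinks that block replication. Mismatch repair corrects replication errors behind the fork. Excision repair removes damaged bases or short stretches of a strand, and end joining ligates broken ends without a template, in any phase. Macrophages meet oxidants of their own making, and itaconate is a metabolite that activated macrophages produce in mitochondria.

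The libraries held 5202626 to 6098934 reads counted to genes, made from polyadenylated RNA by 3′ sequencing, in which a transcript gives reads near its 3′ end. Levels are given as CPM, which relates counts to library size after TMM scaling, and a count of 3 corresponded to 0.486 to 0.563 CPM. All 8 of 8 macrophage markers were detected, with summed levels of 5778 to 6158 CPM in itaconate and 7816 to 8977 CPM in control libraries. The lists for fibroblasts, B cells and epithelium summed to at most 2.09 CPM in any library, and the T cell list to at most 7.45 CPM, mostly from Lck, with Cd3e and Cd8a at 0.

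Of the 43 repair genes, 40 had enough reads to be tested. Recombination transcripts made up most of what fell after itaconate: Rad51ap1, Bard1, Exo1, Brca1, Brca2, Mre11a and Rad50 were lower. Fanci of the Fanconi pathway, Pms2 of mismatch repair, and Ung and Parp1 of base excision and break repair also fell. Xpc, the damage sensor of nucleotide excision repair, was the 1 member that rose, and no end joining member passed the test. Together 11 of 40 members (27.5%) were lower and 1 (2.50%) higher at an adjusted p under 0.05 (edgeR quasi-likelihood F test, Benjamini-Hochberg adjustment over 10636 genes), where 11.2% of all tested genes were lower and 10.7% higher. A called fall of at least 0.5 on the log2 scale was found for 10 of the 40 (8.24% of all tested genes) and of at least 1 for 7 (3.86%). All itaconate libraries lay below all control libraries for 16 of the 40 members and above them for 2, where 17.9% and 17.6% of all tested genes were so separated. The median log2 fold change (itaconate over control) was -0.37 over the 40 members and -0.01 over all tested genes.

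Some of these genes are thinly covered. Of the 40 tested, 31 were above the filter's minimum of 1.76 CPM in all 6 libraries, of which 7 were called lower and 1 higher. Another 7, among them Rad51ap1, Bard1, Exo1 and Fanci, were above it in all control libraries but not in all itaconate libraries, so that they entered the test through the group in which they were higher, and counts over the tested members carry that selection. The 3 untested members were Xrcc3, with 0 counts in every library, Fanca, with 7 counts in the third itaconate library and 0 elsewhere, and Fancb, with 5 counts over the itaconate group and 29 over the control group. Without the first control library 7 members were called lower in place of 11, and without the second itaconate library Xpc was no longer called.

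**Figure D1:**
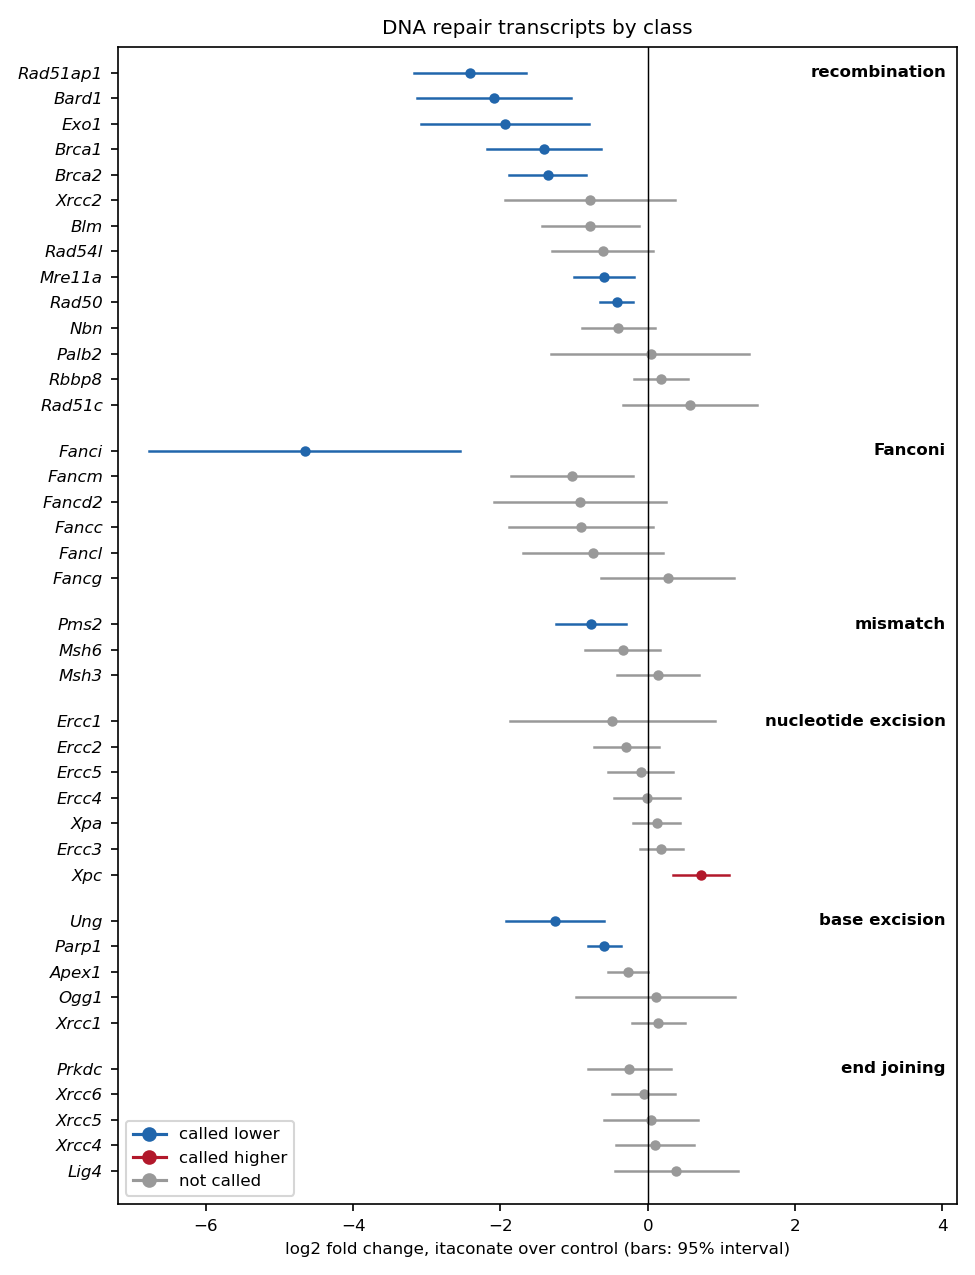
Log2 fold change of itaconate over control for the 40 tested repair genes, ordered within each class, with 95% intervals from the edgeR fit. Blue marks the 11 genes called lower, red the 1 called higher (Xpc) and grey those not called. Recombination holds 7 of the blue points and end joining has none, and the interval of Fanci, from -6.77 to -2.55, is the widest of the called genes.

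By class, 7 of 14 tested recombination genes were called lower, 1 of 6 Fanconi genes, 1 of 3 mismatch genes, 0 of 7 nucleotide excision genes, 2 of 5 base excision genes and 0 of 5 end joining genes, where 11.2% of all tested genes were lower. The Fanconi share, 16.7%, is near that background, and the other classes hold few genes. Median log2 fold changes were -0.70, -0.92, -0.34, -0.01, -0.27 and 0.04 in that order of classes. Differences between classes were not tested. Summed over its members, recombination stood at 221, 235 and 209 CPM in itaconate libraries and 327, 293 and 350 CPM in control libraries, with no overlap. Fanconi genes summed to 22.9, 26.8 and 18.0 CPM in itaconate libraries against 44.6, 34.5 and 40.6 CPM in control libraries. The mismatch sums were also apart, at 40.8 to 46.6 CPM after itaconate and 54.8 to 59.1 CPM in control, and so were the base excision sums, at 201 to 218 CPM and 266 to 297 CPM. Nucleotide excision genes summed to 219, 231 and 211 CPM in itaconate libraries and 209, 195 and 194 CPM in control libraries, apart in the other direction. End joining sums overlapped, at 63.7, 75.7 and 82.0 CPM after itaconate and 83.1, 69.5 and 68.9 CPM in control. In these sums abundant members weigh most. Without Pms2 the mismatch sums would overlap between the groups, and without Xpc so would the nucleotide excision sums.

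Markers of cycling cells were lower in the same itaconate libraries as the member sums of recombination, Fanconi, mismatch and base excision. All 14 tested S phase markers were lower, with sums of 224, 235 and 283 CPM in itaconate libraries against 811, 763 and 808 CPM in control libraries. All 15 mitosis markers were lower as well, with sums of 230, 213 and 221 CPM after itaconate and 1209, 1079 and 1244 CPM in control. The median log2 fold changes of these marker lists were -1.84 and -2.21. Mcm7, a subunit of the replicative helicase, had 21.6, 25.2 and 36.5 CPM after itaconate and 150, 129 and 154 CPM in control (log2 fold change -2.37 ± 0.15, SE, edgeR adjusted p = 5.12e-18). Many recombination and Fanconi genes are known to be transcribed mainly in cycling cells, and the part of the cell cycle markers in the repair values was not tested. In bulk RNA, fewer cells expressing a gene and less transcript per cell cannot be told apart.

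**Figure D2:**
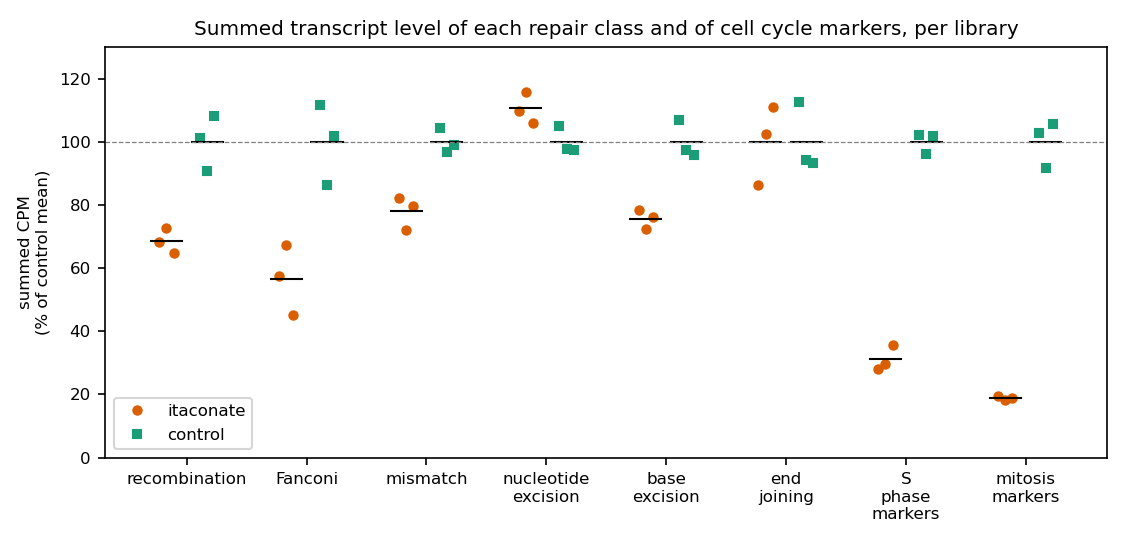
Summed CPM of each repair class and of the 2 cell cycle marker lists in each library, as a percentage of the control mean of that list, with itaconate (circles) left of control (squares) and lines at group means. Itaconate means were 68.7% for recombination, 56.6% for Fanconi, 111% for nucleotide excision and 99.9% for end joining, beside 31.1% for S phase and 18.8% for mitosis markers.

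Promoters were examined because E2F factors, which drive S phase transcription, bind words such as TTTCCCGC, TTTGGCGC and TTTCGCGC. RefSeq promoter windows (GRCm38.p6, 250 bases before to 50 after the start) were at hand for 34 of the 43 members. At least 1 of the 3 words, on either strand, lay in the windows of 7 of the 34 (20.6%), against 4.45% of 8155 tested genes and 2.12% of all 27025 genes with a window. The words did not divide called from uncalled members: 2 of the 9 members called lower that had a window held a word (Bard1 and Brca2), and so did 5 of the 22 not called (Fancg, Rad51c, Msh3, Msh6 and Xrcc6). The matches in Msh3 overlap each other. Among the S phase and mitosis markers 8 of 26 (30.8%) held an E2F word. The word TTTGAA, part of the CHR element of mitotic genes, lay in 2 of the 34 member windows (5.88%), in 12 of 26 marker windows (46.2%) and in 14.3% of tested genes. CCAAT was in 22 of 34 (64.7%, 43% of tested genes), with 4 of the 9 called lower and 15 of the 22 not called. TGACNNNGC, the core of the antioxidant response element bound by NRF2, was in 5 of 34 (14.7%, 17.3% of tested genes). Of these windows 3 belong to the 9 members called lower and 2 to the 22 not called. Differences in these shares were not tested. A match describes letters and not binding. Only exact words were counted, so a window without an E2F word may hold a variant of it.

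The windows of 5 members are printed with E2F words in capitals, to show that genes that fell and genes that were not called share them. Bard1 (chr1:71102923-71103222, minus strand) and Brca2 (chr5:150522371-150522670, plus strand) fell and hold 1 word each. Rad51ap1 (chr6:126939538-126939837, minus strand) fell and holds no exact word. Its window does hold GCGGGAAT, which differs from the searched GCGGGAAA in the last letter. Msh6 (chr17:87974800-87975099, plus strand) and Xrcc6 (chr15:82016119-82016418, plus strand) were not called and hold 1 word each.
Bard1: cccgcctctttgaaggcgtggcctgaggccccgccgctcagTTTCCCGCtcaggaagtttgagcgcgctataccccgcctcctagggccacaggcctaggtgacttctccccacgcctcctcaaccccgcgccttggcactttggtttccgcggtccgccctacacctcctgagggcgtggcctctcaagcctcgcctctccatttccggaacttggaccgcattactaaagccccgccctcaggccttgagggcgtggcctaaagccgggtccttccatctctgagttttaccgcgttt
Brca2: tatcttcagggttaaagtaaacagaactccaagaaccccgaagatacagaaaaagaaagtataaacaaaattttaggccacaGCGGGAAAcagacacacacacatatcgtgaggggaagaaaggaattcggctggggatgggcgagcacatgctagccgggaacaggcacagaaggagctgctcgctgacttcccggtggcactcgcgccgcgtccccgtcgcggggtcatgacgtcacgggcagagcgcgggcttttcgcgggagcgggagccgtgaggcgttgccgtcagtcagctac
Rad51ap1: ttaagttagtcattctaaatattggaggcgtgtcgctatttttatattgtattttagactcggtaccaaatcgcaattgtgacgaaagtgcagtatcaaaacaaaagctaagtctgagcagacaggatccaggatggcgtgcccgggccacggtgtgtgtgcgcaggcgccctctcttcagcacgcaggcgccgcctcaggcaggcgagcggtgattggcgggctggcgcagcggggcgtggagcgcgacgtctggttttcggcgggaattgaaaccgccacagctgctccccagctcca
Msh6: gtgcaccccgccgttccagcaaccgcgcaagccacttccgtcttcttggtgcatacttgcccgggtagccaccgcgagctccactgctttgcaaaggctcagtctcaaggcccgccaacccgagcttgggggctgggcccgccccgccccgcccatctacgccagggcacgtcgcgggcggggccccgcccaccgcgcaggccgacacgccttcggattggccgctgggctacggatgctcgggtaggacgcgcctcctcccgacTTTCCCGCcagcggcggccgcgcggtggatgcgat
Xrcc6: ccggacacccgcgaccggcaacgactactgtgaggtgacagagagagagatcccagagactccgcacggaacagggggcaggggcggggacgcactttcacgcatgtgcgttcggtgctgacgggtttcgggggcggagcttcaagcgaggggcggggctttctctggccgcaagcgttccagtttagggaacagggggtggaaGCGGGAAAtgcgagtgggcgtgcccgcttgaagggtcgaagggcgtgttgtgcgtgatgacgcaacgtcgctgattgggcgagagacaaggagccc

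Counted from the start used for each window, the word lies 209 bases before it in Bard1, 168 in Brca2 and 46 in Xrcc6. For Bard1 and Brca2 that start lies inside the gene coordinates given below, not at their edge. The Xrcc6 start also lies inside its gene coordinates (chr15:81987833-82040085), far from their edge. In Msh6 the word lies just after the start. Brca2 and Xrcc6 carry it on the other strand, read as GCGGGAAA.

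In recombination, BRCA1 and its partner BARD1, together a ubiquitin ligase, act at the break, and BRCA2 prepares the resected strand for exchange. Brca1 (chr11:101488761-101551955) had 2.82, 3.17 and 8.20 CPM in itaconate libraries and 12.4, 8.91 and 16.7 CPM in control libraries. The third itaconate library came close to the lowest control library, but the groups did not overlap (log2 fold change -1.41 ± 0.39, SE, edgeR adjusted p = 0.00528). That call was lost without the third control library (adjusted p = 0.0747). Bard1 (chr1:71027535-71103141) had 1.31, 3.35 and 1.22 CPM after itaconate and 12.5, 6.80 and 5.77 CPM in control, with the first control library well above the other two (-2.09 ± 0.52, adjusted p = 0.00200, and 0.0718 without that library). Brca2 (chr5:150522297-150570147) had 9.95, 10.3 and 7.67 CPM after itaconate and 23.9, 19.6 and 28.3 CPM in control. Its fold change of 0.389 (log2 -1.36 ± 0.26, edgeR adjusted p = 5.94e-05) was called under all 13 alternative settings at this threshold. Palb2, which bridges BRCA1 and BRCA2, gave 1.86 to 3.31 CPM after itaconate and 0.972 to 3.34 CPM in control and was not called, with a 95% interval on the log2 scale of -1.31 to 1.38.

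Rad51ap1, whose product stimulates strand invasion, fell most among the recombination members. It had 2.25, 5.03 and 1.57 CPM in itaconate libraries and 15.4, 15.4 and 16.6 CPM in control libraries (log2 fold change -2.42 ± 0.38, SE, edgeR adjusted p = 1.94e-06). The control libraries lay within a narrow band, well above the highest itaconate library. Exo1, the exonuclease that resects break ends over long distances, had 1.88, 0.932 and 2.27 CPM after itaconate and 7.35, 7.29 and 5.02 CPM in control (-1.94 ± 0.57, adjusted p = 0.00921). Without the first or the second control library the Exo1 call was lost (adjusted p = 0.0506 and 0.0539).

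The MRE11-RAD50-NBN complex senses the break and starts resection. Rad50, its ATPase subunit, had 107, 108 and 90.9 CPM in itaconate libraries and 149, 121 and 140 CPM in control libraries (log2 fold change -0.42 ± 0.11, SE, edgeR adjusted p = 0.00381). Mre11a, the nuclease subunit, had 17.8, 20.1 and 20.8 CPM after itaconate and 30.1, 27.5 and 30.9 CPM in control (-0.59 ± 0.20, adjusted p = 0.0315). Both fell without overlap between the groups, with point estimates nearer 0 than those of Brca1 or Rad51ap1. The Mre11a call was lost without itaconate library 1 or 2 or control library 1 or 3 (adjusted p = 0.0719 to 0.102) and with no filter on low counts (0.0551), and 6.76% of the searched words of its 3′ end occur in transcripts of other genes. Nbn, the subunit that tethers the ATM kinase, was not called (-0.40, 95% interval -0.89 to 0.10). Its control libraries at 17.5, 16.8 and 29.6 CPM overlapped the itaconate libraries at 16.2, 17.3 and 15 CPM. Rbbp8, which encodes the resection factor CtIP and was the uncalled member of this class with the highest mean, had 33.8, 40.4 and 35.8 CPM after itaconate and 25.4, 34.8 and 37.0 CPM in control (0.18 ± 0.18, adjusted p = 0.549).

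The other recombination members were not called. Blm, a helicase that dissolves joint molecules, had 8.26, 4.66 and 10.3 CPM in itaconate libraries against 11.9, 13.3 and 14.9 CPM in control libraries. The groups did not overlap, but the adjusted p was 0.0815 (log2 fold change -0.78 ± 0.33), and it fell to 0.0361 without the third itaconate library. Rad54l, a motor protein that acts on chromatin during strand exchange, had -0.61 (95% interval -1.30 to 0.07), and exons of Lrrc41 lie over its 3′ end on the opposite strand. Of the accessory factors of strand exchange, Xrcc2 had -0.79 (-1.94 to 0.37) and Rad51c 0.58 (-0.33 to 1.48), so their point estimates lay on opposite sides of 0, and both intervals hold 0. Of the searched 3′ end words of Rad51c, 6.98% occur in transcripts of other genes. Xrcc3 had 0 counts.

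**Figure D3:**
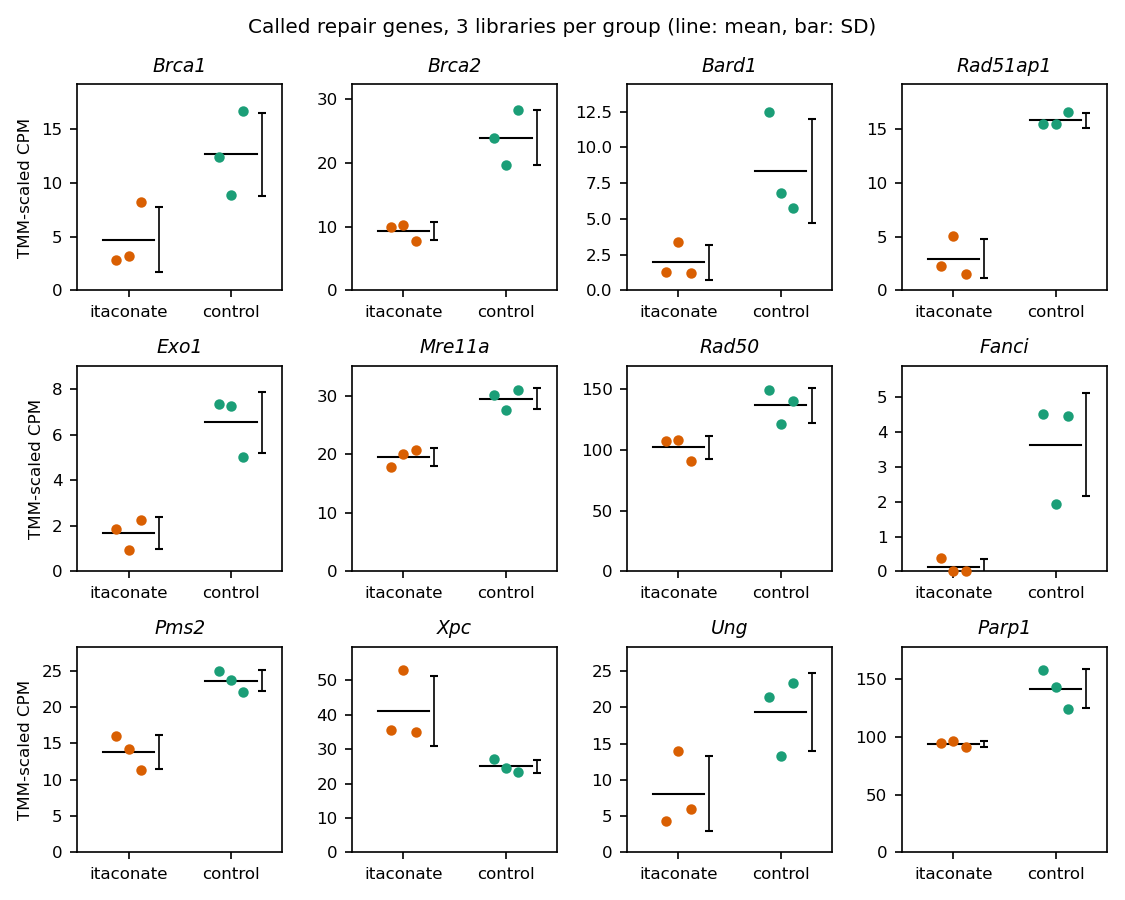
TMM-scaled CPM of the 12 called repair genes in each library, itaconate left of control, with the mean (line) and SD (bar) of 3 libraries and an axis from 0 in every panel. Itaconate points lie below all control points except for Xpc, where they lie above, and Ung, where the second itaconate library at 14.0 CPM exceeds the second control library at 13.3 CPM.

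In the Fanconi pathway a core complex ubiquitinates the FANCI-FANCD2 pair, which then recruits nucleases to a crosslink. Fanci (chr7:79392312-79450266) had 2, 0 and 0 counts in itaconate libraries and 27, 12 and 24 counts in control libraries. Over the groups that is 2 against 63 counts, a depth-scaled ratio of 0.0339 with an exact 95% counting interval of 0.00402 to 0.128 (fitted log2 fold change -4.66 ± 1.05, SE, edgeR adjusted p = 0.000612). The fall was called in all 13 alternative settings, although exons of Polg lie over the 3′ end of Fanci on the opposite strand and the strand setting of the counting is not given. Its partner Fancd2 had 4.51, 1.68 and 1.57 CPM after itaconate and 7.01, 3.24 and 4.47 CPM in control. The groups overlapped through the first itaconate library, and Fancd2 was not called (-0.92, 95% interval -2.09 to 0.25).

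Fancm, the translocase that anchors the core complex to DNA, was the uncalled member of its class with the highest mean. It had 5.07, 9.13 and 1.74 CPM in itaconate libraries and 13.4, 7.45 and 11.7 CPM in control libraries (log2 fold change -1.03 ± 0.41, SE, edgeR adjusted p = 0.0657). The second itaconate library alone overlapped the control group, and without it Fancm was called lower (-1.67, adjusted p = 0.00710). Core complex members Fancc (-0.91, 95% interval -1.89 to 0.07) and Fancl, the ubiquitin ligase subunit (-0.74, -1.69 to 0.21), lay below 0 without being called, while Fancg had 0.27 (-0.63 to 1.17). Fancl overlaps Vrk2, and Fancd2 overlaps Fancd2os, on the opposite strand at their 3′ ends.

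Mismatch repair starts with MSH dimers that find the mispair and goes on with an endonuclease complex that holds PMS2. Pms2 had 16.0, 14.2 and 11.3 CPM in itaconate libraries and 25, 23.7 and 22.1 CPM in control libraries, with no overlap (log2 fold change -0.77 ± 0.24, SE, edgeR adjusted p = 0.0133). The call was lost without the third itaconate library (adjusted p = 0.0702) or the first control library (0.0531). Its counts are uncertain, since 28.8% of the searched words of its 3′ end are shared with the overlapping gene Gm42421. Msh6, of the dimer that binds base mispairs, had 17.5, 13.4 and 14.8 CPM after itaconate and 24.0, 13.8 and 20.1 CPM in control (-0.34 ± 0.25, adjusted p = 0.378), with overlap through the second control library. Exons of Fbxo11 lie over the 3′ end of Msh6 on the opposite strand. Msh3, of the dimer for longer loops, had 0.14 (95% interval -0.42 to 0.69). An exon of another gene lies over an annotated 3′ end of Msh3 on the opposite strand.

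Nucleotide excision repair removes bulky lesions such as ultraviolet photoproducts. XPC finds the distortion, TFIIH with the helicases XPB and XPD (Ercc3 and Ercc2) opens it, XPA checks it, and XPF-ERCC1 (Ercc4 and Ercc1) and XPG (Ercc5) cut. Xpc (chr6:91489305-91515888) had 35.5, 52.9 and 35.1 CPM in itaconate libraries and 27.0, 24.5 and 23.4 CPM in control libraries. All itaconate libraries were above all control libraries, the second by the widest margin (log2 fold change 0.72 ± 0.19, SE, edgeR adjusted p = 0.00352). Without that library the value was 0.50 and no longer called (adjusted p = 0.113), and it was called in the other 12 alternative settings.

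The later steps of nucleotide excision did not pass the test. Ercc3, the uncalled member of the class with the highest mean, had 63.9, 55.0 and 80.6 CPM in itaconate libraries against 60.9, 49.1 and 65.9 CPM in control libraries (log2 fold change 0.18, 95% interval -0.11 to 0.48). Xpa had 0.12 (-0.20 to 0.44), Ercc4 had -0.01 (-0.46 to 0.44), Ercc5 had -0.09 (-0.54 to 0.35) and Ercc2 had -0.29 (-0.73 to 0.15), all with intervals that leave out a log2 change of 1 in either direction. Ercc1 was too thin to narrow down (-0.48, -1.87 to 0.91), with 25, 9 and 6 counts after itaconate and 30, 30 and 2 counts in control, the third control library standing far below the others. Exons of other genes lie over the 3′ ends of Xpa, Ercc1 and Ercc2 on the opposite strand.

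Base excision repair removes single damaged bases. Ung, the glycosylase that takes uracil out of DNA and in part works at the replication fork, had 4.32, 14.0 and 5.93 CPM in itaconate libraries and 21.4, 13.3 and 23.4 CPM in control libraries. It fell (log2 fold change -1.26 ± 0.33, SE, edgeR adjusted p = 0.00390) although the second library of either group lay close to that of the other. Parp1, the sensor that marks strand breaks with poly(ADP-ribose), had 94.8, 96.5 and 91.2 CPM after itaconate and 158, 143 and 124 CPM in control, a fold change of 0.665 (log2 -0.59 ± 0.11, adjusted p = 5.23e-05). Both calls held in all 13 alternative settings.

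Apex1, the endonuclease that cuts abasic sites and also acts as a redox factor, was the uncalled member of this class with the highest mean. It had 75.1, 55.4 and 64.2 CPM in itaconate libraries and 76.6, 75.2 and 82.4 CPM in control libraries. The groups did not overlap, with a margin of less than 1 CPM (log2 fold change -0.27 ± 0.13, SE, edgeR adjusted p = 0.160). Xrcc1, the scaffold that PARP1 recruits, had 0.14 (95% interval -0.22 to 0.50). Ogg1, the glycosylase for oxidised guanine, had 5.45, 4.10 and 3.84 CPM after itaconate and 3.84, 2.11 and 6.51 CPM in control, and its log2 interval of -0.97 to 1.19 allows a log2 change of 1 upwards. Pip4p1 overlaps Apex1 and Camk1 overlaps Ogg1 at the 3′ end on the opposite strand.

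In end joining the KU dimer of XRCC5 and XRCC6 holds the ends, the kinase DNA-PKcs (Prkdc) joins it, and XRCC4 with LIG4 seals the break. With edgeR 0 of 5 members were called, 0 had an unadjusted p under 0.05, and 0 were called by DESeq2 or limma-voom. Xrcc6 had 19.3, 23.9 and 33.0 CPM in itaconate libraries and 28.0, 21.5 and 29.6 CPM in control libraries (log2 fold change -0.05, 95% interval -0.48 to 0.37). Xrcc5 had 0.04 (-0.60 to 0.68), Xrcc4 had 0.10 (-0.43 to 0.63), Prkdc had -0.25 (-0.81 to 0.32) and Lig4 had 0.39 (-0.45 to 1.22). The 7.51, 6.52 and 6.98 CPM of Lig4 after itaconate lay just above its 6.34, 4.70 and 5.02 CPM in control (adjusted p = 0.576). Over the 5 genes the intervals ran from -0.81 to 1.22, so that falls of the size seen for Rad51ap1, Bard1 or Brca2 lie outside them, while a rise of 1 for Lig4 does not.

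A further 78 genes of the same pathways, taken by their pathway, gave the rest of each class. Of these 77 are in the table and 68 were tested, with 14 (20.6%) called lower and 4 (5.88%) higher, against 11.2% and 10.7% of all tested genes (median log2 fold change -0.21). Without itaconate library 1, control library 1 or control library 3, 9 were lower. Of 24 other recombination genes 9 (37.5%) were lower and 0 higher, and 5 were lower without itaconate library 1 or without control library 1. Brip1, a BRCA1-associated helicase, and Gen1, a resolvase of Holliday junctions, fell (log2 fold change -1.81 ± 0.28, SE, edgeR adjusted p = 1.41e-06, and -2.45 ± 0.50, adjusted p = 0.000166). Of 7 other Fanconi genes 2 were lower: Usp1, which removes ubiquitin from FANCD2, had 21.6, 26.8 and 33.1 CPM after itaconate and 91.5, 75.8 and 81.5 CPM in control (-1.61 ± 0.16, adjusted p = 1.19e-11), and Ube2t, the enzyme that supplies that ubiquitin, fell by 2.20 ± 0.66. The Ube2t call was lost without the second library of either group (adjusted p = 0.0726 and 0.0863).

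Of 15 other nucleotide excision genes 3 (20%) were higher and 1 (6.67%) lower, where 10.7% of all tested genes were higher and 11.2% lower. Rad23b, the stabilising partner of XPC, had 384, 388 and 440 CPM in itaconate libraries and 313, 285 and 311 CPM in control libraries (log2 fold change 0.42 ± 0.09, SE, edgeR adjusted p = 0.000163). Cetn2, a further protein of the XPC complex, named after its values were seen, had 0.01 (95% interval -0.28 to 0.29). Mnat1, an assembly factor of the TFIIH kinase module, had 91.7, 82.0 and 85.5 CPM after itaconate and 56.3, 50.4 and 67.0 CPM in control (0.58 ± 0.13, adjusted p = 0.000838). Gtf2h1, a TFIIH core subunit, rose by 0.40 ± 0.12 (adjusted p = 0.0111, and 0.0998 without the first control library). Ccnh, the cyclin of the TFIIH kinase, had 50, 38.4 and 37.1 CPM in itaconate libraries and 56.8, 57.5 and 53.2 CPM in control libraries and fell (-0.42 ± 0.16, adjusted p = 0.0475), a call lost with DESeq2 (0.0573), with no filter (0.0683) and without any single library but itaconate library 1 (0.0684 to 0.174). Calls within the TFIIH kinase module therefore stood on both sides of 0, and the kinase also serves transcription.

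Of 14 other base excision genes 2 (14.3%) were lower and 1 (7.14%) higher, where 11.2% of all tested genes were lower and 10.7% higher. Without itaconate library 3, or without control library 1 or 3, 0 were higher. Summed over the 16 other base excision genes, levels were 261, 247 and 275 CPM after itaconate and 247, 266 and 272 CPM in control. These sums overlapped, unlike those of the base excision members. Neil3, a glycosylase known from proliferating cells, had 2.63, 1.86 and 1.22 CPM in itaconate libraries and 3.67, 10.7 and 11.0 CPM in control libraries (log2 fold change -2.14 ± 0.52, SE, edgeR adjusted p = 0.00166). Mbd4, a thymine glycosylase, had 12.0, 10.6 and 12.7 CPM after itaconate and 17.7, 21.1 and 20.3 CPM in control (-0.74 ± 0.26, adjusted p = 0.0317). That call was lost with no filter (0.0537) and without itaconate library 1 or 2 or control library 2 or 3 (0.0615 to 0.119). With edgeR 0 of 4 other mismatch genes and 0 of 4 other end joining genes were called, with an unadjusted p under 0.05 for 1 and 0 of them, and DESeq2 and limma-voom also called 0. Without itaconate library 3 or control library 2, 1 other mismatch gene was called lower. Polq, named after its values were seen, encodes a polymerase that joins ends through short matches but was counted with recombination, not with end joining. It was called lower (log2 fold change -2.49 ± 0.81, edgeR adjusted p = 0.0207). Counts were 2, 9 and 0 after itaconate and 18, 35 and 16 in control. The Polq call was lost without itaconate library 1 or 3 or control library 2 or 3 (0.0514 to 0.181).

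**Figure D4:**
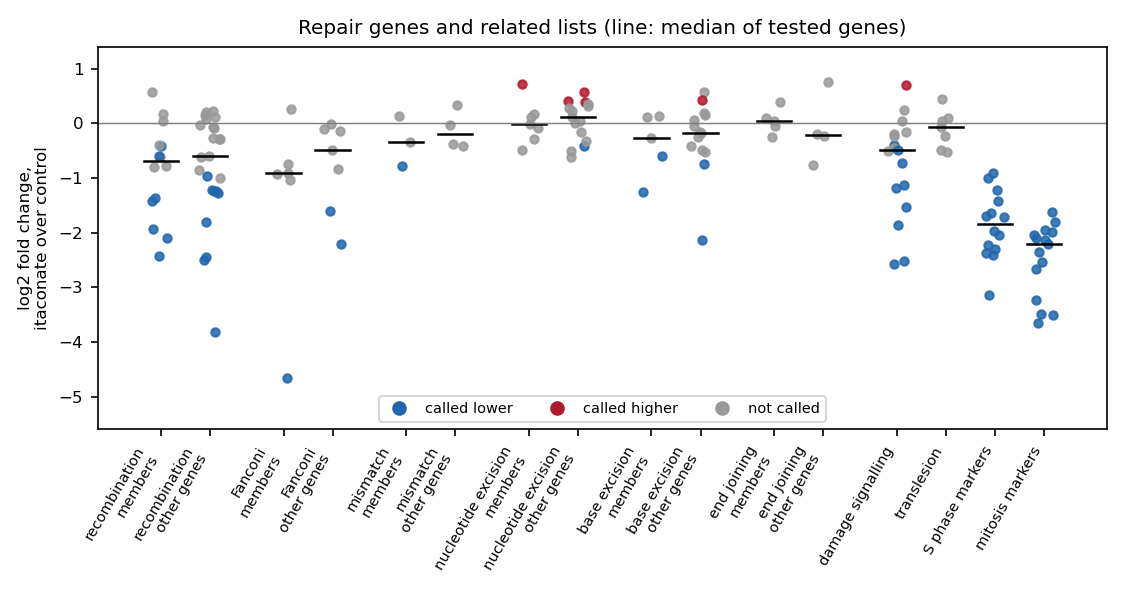
Log2 fold change of itaconate over control for every tested gene of each repair class, with the 43-gene set (members) left of the other genes of the same class, and of 4 related lists, with a line at each median. Among both members and other genes, recombination medians lie below 0 (-0.70 and -0.60) and nucleotide excision medians near 0 (-0.01 and 0.12), and all S phase and mitosis markers lie below 0.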

How the data were processed

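The deposited table holds unnormalized read counts per gene from the authors, for RAW264.7 RNA taken with TRIzol and made into Lexogen QuantSeq FWD libraries, per the labels' protocols. STAR 2.7.5a, HTSeq 0.6.1, edgeR and the build mm10 are named, per the submitters' processing notes, with no settings. Whether counting used strand, which annotation it used and how reads with several matches were handled is not given in the sources used, so overlaps at 3′ ends were noted. All 6 count columns were used and 0 belonged to another series. Groups follow the treatment labels. No batch is named in the labels.

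Genes passing edgeR's filterByExpr (minimum count 10, minimum total 15) numbered 10636 and held 99.74% of counts. Libraries were scaled by TMM and tested two-sided in edgeR 4.0.16 under R 4.3.3 (quasi-likelihood F test, robust, with group as its single term), with Benjamini-Hochberg adjustment over all tested genes and calls at an adjusted p under 0.05. SEs were obtained by dividing log2 fold changes, without sign, by the root of F. Counts were also simulated with the gene means and depths of these libraries and an assumed spread between replicates, with 10512 genes tested. There 68% of genes changed by 1 on the log2 scale were called and 100% of those changed by 2. The changed genes were drawn from all levels, so these rates do not describe thinly covered members. Counting limits and intervals cover counting error only, since reads carry no molecular identifiers. Libraries of the same group differed beyond sampling noise (chi-square per gene 4.8 to 7.7) and were counted as separate samples.

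The 43 genes, the other lists and the tests were chosen with earlier results of these data known. Values per library are given for members called with a log2 fold change of at least 0.5 in either direction and for the uncalled member of each class with the highest mean. From each other list the rule took up to 3 called genes of smallest p and called genes going against the majority of their list. Other members shown per library were chosen after their values were seen. Alternatives were DESeq2 1.42.0, limma-voom (limma 3.58.1), other scalings and filters, a replicate block, a stricter threshold and leaving out each library. For 3′ ends, GENCODE M21 transcripts were searched over their last 500 bases in words of 50 bases. Promoters and coordinates are from RefSeq GRCm38.p6, the assembly that mm10 names. The search for words took both strands. Some genes that these rules select are not reported here.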

Additional observations from a re-analysis of the deposited data

How the results depend on the processing

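Of the 12 called repair genes, 6 (Brca2, Rad51ap1, Rad50, Fanci, Ung and Parp1) were called under all 13 other settings at the same threshold and 6 were lost under at least 1. Of the 28 uncalled genes, 2 (Blm and Fancm) were called under at least 1. The called genes kept the sign of their log2 fold change in all 13. Some uncalled genes did not, such as Palb2 (-0.35 to 0.31). Leaving out 1 library at a time gave 7 to 11 lower members, 0 to 1 higher members, 4 to 8 lower recombination members (7 and 4 without control library 1), 1 to 2 lower Fanconi members, 0 to 1 lower mismatch members and 0 to 1 higher nucleotide excision members. It gave 9 to 13 lower and 2 to 4 higher genes among the other repair genes, and 0 to 1 higher damage signalling genes. Limma-voom called 2 lower Fanconi members. At an adjusted p under 0.01, 9 members were lower and 1 higher, of which 0 were mismatch members. At that threshold 7 other repair genes were lower and 2 higher, 0 damage signalling genes were higher, and 784 of all genes were lower and 744 higher. Scaling by library totals gave 1427 lower and 936 higher genes, with a median log2 fold change of -0.06, and 11 lower members. Replicate numbers did not pair the libraries (correlation of deviations -0.0135 to 0.038), and a fit with the replicate block called 11 members lower and 1 higher, and 13 and 3 of the other repair genes. Low counts left Fanca, Fancb and Xrcc3 untested, and intervals of Ercc1 and Palb2 are wide. All S phase markers tested (14) were called lower in every setting except without control library 2 (13). The causes were not tested.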

Other observations

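Damage signalling, which detects lesions and halts the cycle, was described with a list of 18 genes, of which 17 were tested. Of these 9 (52.9%) were called lower and 1 (5.88%) higher, against 11.2% and 10.7% of all tested genes (median log2 fold change -0.48). H2afx, the histone variant phosphorylated around breaks, had 30.1, 25.2 and 29.8 CPM in itaconate libraries and 81.5, 73.7 and 91.2 CPM in control libraries (-1.53 ± 0.15, SE, edgeR adjusted p = 1.49e-11). Timeless, of the fork protection complex, had 1.69, 5.40 and 5.93 CPM after itaconate and 25.7, 24.5 and 24.8 CPM in control (-2.51 ± 0.32, adjusted p = 1.12e-08). Clspn, the adaptor through which ATR activates CHK1, had 6.39, 10.4 and 12.6 CPM after itaconate and 41.1, 31.6 and 33.5 CPM in control (-1.85 ± 0.24, adjusted p = 1.79e-08). The groups of these 3 genes did not overlap. Atrip, the partner of the ATR kinase, was higher, with 28.7, 27.2 and 23.0 CPM after itaconate and 22.2, 12.5 and 14.0 CPM in control (0.70 ± 0.23, adjusted p = 0.0243), a call lost without itaconate library 1 or 2 or control library 2 or 3 (adjusted p = 0.0790 to 0.144).

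The translesion list, whose polymerases copy past lesions without removing them, had 0 of 7 tested genes called by edgeR, by DESeq2 or by limma-voom, and 0 at an unadjusted p under 0.05. Its summed level was 110, 91.7 and 99.9 CPM in itaconate libraries and 105, 97.2 and 103 CPM in control libraries, so the groups overlapped. Log2 fold changes ran from -0.52 for Rev1 (95% interval -1.89 to 0.85) to 0.44 for Polk (-0.03 to 0.90). The S phase and mitosis markers were lower in the same itaconate libraries, and their part in the damage signalling values was not tested.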
